A study of Arabidopsis thaliana with 12 samples.

Results

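WRKY6, WRKY22 and WRKY53 are 3 transcription factor genes of Arabidopsis thaliana. They were selected by symbol from the WRKY family for their known roles in defence and senescence. The condition was that a probe set was paired with the gene alone. Earlier results of these data were known when they were chosen, so their calls and ranks are not independent of the choice. All 3 met that condition, each with 1 probe set, out of 13350 genes with such a probe set. Of the WRKY family 6 genes had one in the gene annotation used here. That annotation names no gene for 8730 probe sets, so other WRKY genes may be among them. The measurements came from 12 single-colour arrays hybridised with biotin-labelled RNA of the complete plant at 21 days of age, in the vegetative stage. The 4 groups of 3 arrays were ARR22-ox plants given 20 µM t-zeatin for 3 h, untreated ARR22-ox plants, wild-type Col-0 plants given the same t-zeatin treatment, and untreated Col-0 plants. ARR22-ox plants overexpress ARR22, a type-C response regulator of the cytokinin pathway, and t-zeatin is a natural cytokinin. The promoter behind the transgene and the number of transgenic lines are not given in the sources used here. The untreated plants are labelled as having no treatment, which is not a mock treatment, and the labels leave unsaid if separate plants gave the 3 arrays in each group. The titles of the Col-0 t-zeatin arrays alone end in a suffix that the labels do not explain, so whatever it marks cannot be told apart from that group. Every p-value measures the spread between these arrays, which may be technical.

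WRKY proteins are plant transcription factors named after a conserved stretch of their zinc-finger DNA-binding domain, with which they bind the W-box element of promoters, including those of other WRKY genes. Many of them are themselves induced within minutes to hours by pathogens, wounding or other stress. WRKY6 is known as a gene of senescing leaves and of pathogen responses and also represses a phosphate exporter gene. WRKY22 acts downstream of a MAP kinase cascade that is switched on when the plant senses bacterial flagellin, and it has been linked to dark-induced senescence. WRKY53 is an early regulator of leaf senescence. Cytokinins delay leaf senescence, and their signal passes from receptor kinases through phosphotransfer proteins to response regulators.

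The labels and the arrays were checked before the genes were read. The mean ARR22 signal was 2892 in t-zeatin-treated ARR22-ox plants, against 0.518 in Col-0 plants given the hormone, and 3255 in ARR22-ox plants without hormone, against 1.13 in Col-0. ARR16, a type-A response regulator gene of a group known for rapid cytokinin induction, had a log2 response of 3.18 in Col-0 (adjusted p = 3.54e-07) and of -1.01 in ARR22-ox (adjusted p = 0.0022, at signals of 8.55 with and 17.7 without t-zeatin). ARR16 therefore checks the hormone label of the Col-0 arrays only. ARR22-ox untreated replicate 3 stood apart from the other arrays. Its mean correlation with its own group was 0.926 across the tested probe sets. The other arrays of its group, whose means include it, had 0.9585, and the arrays of the other groups had at least 0.989. For the GAPDH control probe sets its signal near the 3' end was 1.82 times that near the 5' end, against at most 1.09 times elsewhere, and for the actin control 8.82 times, against at most 6.75. Values of the 3 genes that use this array are also given without it. Of the 6 leaf markers listed 1 had a probe set of its own in the gene annotation used. This was RCA, which activates Rubisco, with signals between 2125 and 3099 on all arrays. Of 11 root markers 1 had one, and PYK10, a beta-glucosidase abundant in roots, lay between 1327 and 2217. Both organ markers were bright on every array.

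WRKY6 (AT1G62300) was highest in ARR22-ox plants given t-zeatin. Its signal there, on the linear scale of the array software, was 166.7, 169.2 and 171.7 (mean 169.2 ± 2.46, SD, n = 3). In ARR22-ox untreated plants it was 57.4, 66.8 and 56.7 (60.3 ± 5.63). Neither ARR22-ox group overlapped with the other or with a Col-0 group. In Col-0 t-zeatin plants the signal was 39.1, 42.8 and 44.4 (42.1 ± 2.71), and in Col-0 untreated plants it was 42.8, 39.4 and 40.1 (40.8 ± 1.78). The Col-0 groups overlapped, so their order, in the lowest places among the 4 groups, was not settled. The 3 arrays of the highest group differed by a coefficient of variation of 1.45%, and those of ARR22-ox untreated by 9.35%.

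WRKY22 (AT4G01250) was highest in untreated wild-type plants. It had 54.1, 59.9 and 62.4 in ARR22-ox t-zeatin plants (58.8 ± 4.24, SD, n = 3) and 25.7, 29.97 and 35.8 in ARR22-ox untreated plants (30.5 ± 5.04). It had 28.4, 24.1 and 25.3 in Col-0 t-zeatin plants (25.9 ± 2.22), against 124.4, 128.9 and 124.8 in Col-0 untreated plants (126.0 ± 2.48). Each single Col-0 untreated array exceeded every array of the other 3 groups. ARR22-ox t-zeatin ranked next and overlapped with no other group. ARR22-ox untreated and Col-0 t-zeatin shared the bottom of the order with overlapping values. Those low values stood close to the dimmest mean kept for testing, a signal of 24.3.

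WRKY53 (AT4G23810) varied most between replicates. Its signal was 30.4, 27.8 and 35.6 in ARR22-ox t-zeatin plants (31.3 ± 3.95, SD, n = 3) and 20.8, 13.9 and 28.5 in ARR22-ox untreated plants (21.1 ± 7.29). It was 28.3, 42.7 and 32.0 in Col-0 t-zeatin plants (34.3 ± 7.48) and 46.8, 43.3 and 40.4 in Col-0 untreated plants (43.5 ± 3.19). Col-0 untreated had the highest mean and ARR22-ox untreated the lowest, and these groups did not overlap. Every pair of neighbours in the order of the 4 means did overlap. The coefficient of variation reached 34.6% in ARR22-ox untreated, where the array that stood apart gave the highest of the 3 values and replicate 2 the lowest. The ARR22-ox untreated mean lies below the dimmest kept mean of 24.3.

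**Figure D1:**
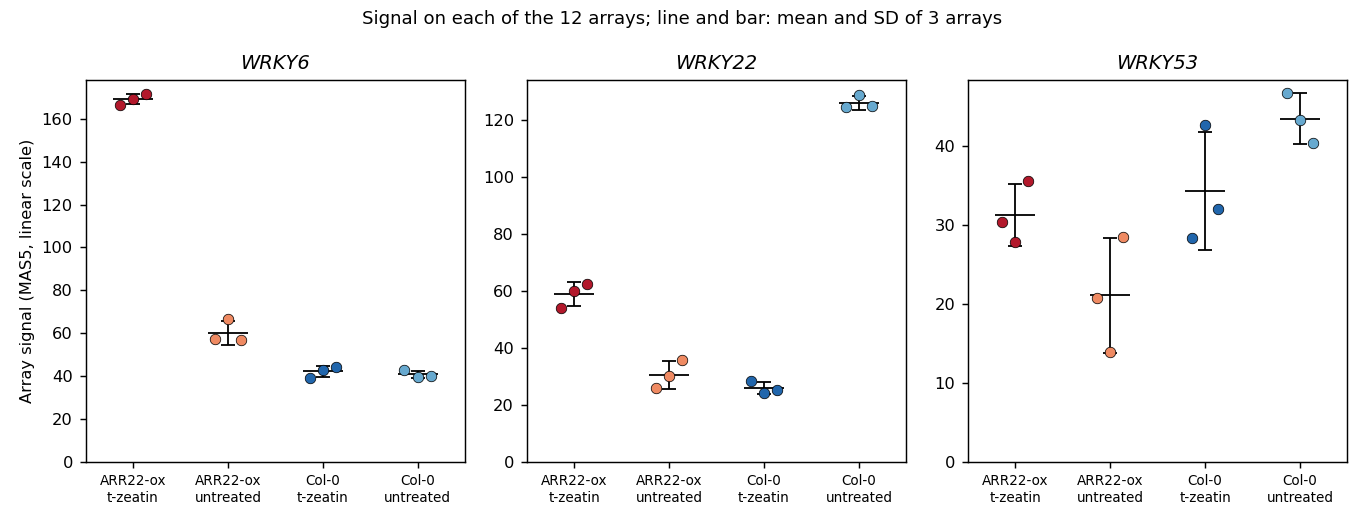
Array signal on a linear axis for each gene, with 1 point per array, and the mean and SD of 3 arrays per group. WRKY6 stands at 169.2 in ARR22-ox t-zeatin plants, WRKY22 at 126 in Col-0 untreated plants, and the WRKY53 groups overlap with their neighbours.

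The first comparison asked how t-zeatin changed the 3 transcripts in wild-type plants. WRKY22 fell 4.87-fold, to 25.9 ± 2.22 in Col-0 t-zeatin plants, against 126 ± 2.48 in Col-0 untreated plants. The log2 change was -2.28 ± 0.13 (SE, adjusted p = 9.58e-08, limma). Of 13648 tested probe sets, 18 had a more negative change. WRKY6 had a log2 change of 0.05 that did not pass (95% interval -0.17 to 0.26, adjusted p = 0.74), and its sign turned under quantile normalization (-0.012). WRKY53 had -0.36, which did not pass either (95% interval -0.87 to 0.15, adjusted p = 0.237). In this comparison 44.8% of all tested probe sets were called at an adjusted p under 0.05, 23.7% as higher and 21.1% as lower. In whole plants, fewer cells carrying a transcript and less transcript per cell cannot be told apart, here and below.

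The second comparison asked the same in plants overexpressing ARR22, where all 3 genes had positive changes. WRKY6 rose 2.82-fold, to 169.2 ± 2.46 in ARR22-ox t-zeatin plants, against 60.3 ± 5.63 in ARR22-ox untreated plants (log2 change 1.49 ± 0.10, SE, adjusted p = 2.26e-07). Larger rises were seen for 2.95% of the tested probe sets. WRKY22 rose 1.94-fold, to 58.8 ± 4.24 against 30.5 ± 5.04 in ARR22-ox untreated plants (log2 change 0.96 ± 0.13, adjusted p = 7.26e-05). Its signal on each ARR22-ox t-zeatin array was still below that of every Col-0 untreated array. The changes were 1.45 for WRKY6 and 1.08 for WRKY22, both called, without ARR22-ox untreated replicate 3. Of all tested probe sets 50.3% were called in ARR22-ox, 25.2% as higher and 25.1% as lower.

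WRKY53 changed by 0.62 ± 0.24 in ARR22-ox (log2, SE, adjusted p = 0.0438), with overlapping groups. Its means were 31.3 in ARR22-ox t-zeatin plants and 21.1 in ARR22-ox untreated plants. The call did not survive the removal of any single array except Col-0 t-zeatin replicate 1 or 2 and ARR22-ox untreated replicate 3. Without ARR22-ox untreated replicate 2, the array with the signal of 13.9, the change was 0.35 (adjusted p = 0.179). Without ARR22-ox untreated replicate 3 it was 0.87 (adjusted p = 0.00158), and with 16 added to each signal before log2 it was 0.37 (adjusted p = 0.0492).

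**Figure D2:**
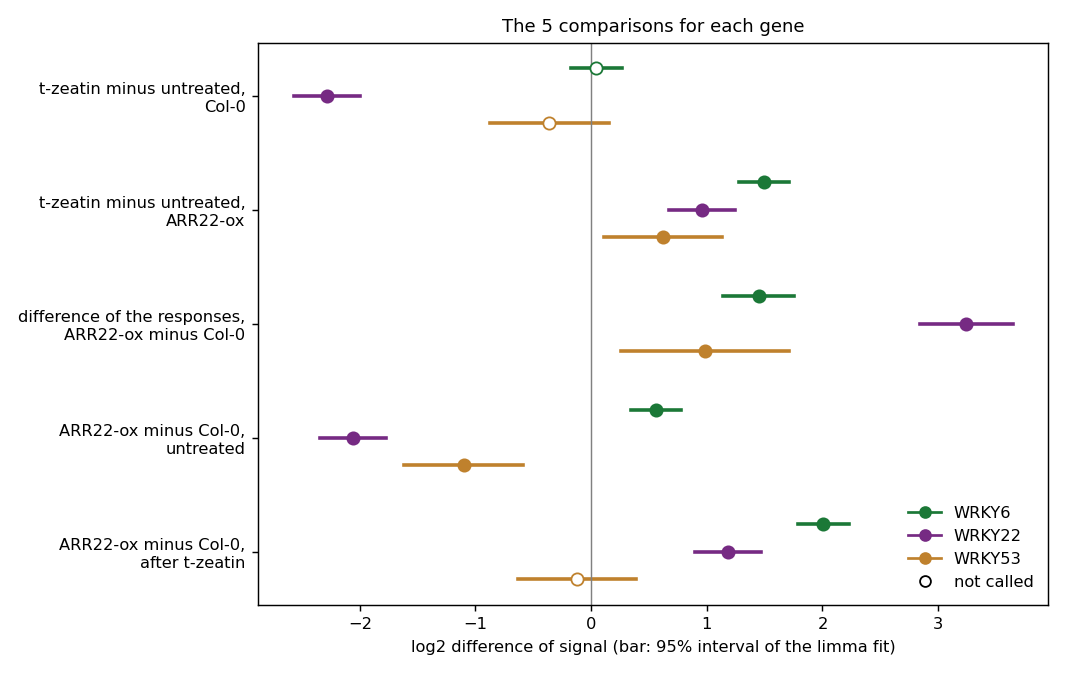
Log2 differences of the 5 comparisons with 95% intervals from the limma fit, for WRKY6, WRKY22 and WRKY53. Filled points passed an adjusted p of 0.05. WRKY22 lies at -2.28 in Col-0 and at 0.96 in ARR22-ox, and WRKY53 has the widest intervals.

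The third comparison tested whether the genotypes responded differently, as the ARR22-ox response minus the Col-0 response. The difference was positive for each gene. WRKY22 had the largest of the 3, 3.24 ± 0.18 (SE, n = 3 arrays per group, adjusted p = 6.88e-08), with a positive response in ARR22-ox and a negative one in Col-0. Of the tested probe sets 0.52% had a larger positive difference. WRKY6 differed by 1.45 ± 0.14 (adjusted p = 5.56e-06), made up of 1.49 in ARR22-ox and 0.05 in Col-0. WRKY53 differed by 0.98 ± 0.33 (adjusted p = 0.0294). The call did not survive the removal of some single arrays (adjusted p up to 0.0747): replicates 1 and 3 of ARR22-ox t-zeatin, replicate 2 of ARR22-ox untreated, replicates 1 and 3 of Col-0 t-zeatin, and replicates 1 and 2 of Col-0 untreated. Without ARR22-ox untreated replicate 3 the differences were 1.40 for WRKY6, 3.36 for WRKY22 and 1.23 for WRKY53 (adjusted p = 0.00107 for WRKY53), and with 16 added to the signals that of WRKY53 was 0.62 (adjusted p = 0.0247). The difference was called for 45.6% of all tested probe sets, for 21.1% as higher and 24.5% as lower.

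The 2 responses share no array, and WRKY22 belonged to the 854 probe sets (6.26% of those tested) that fell in Col-0 and rose in ARR22-ox. WRKY6 and WRKY53 belonged to the 1611 (11.8%) that rose in ARR22-ox and were not called in Col-0. Membership of WRKY53 in that group rests on the call described above.

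**Figure D3:**
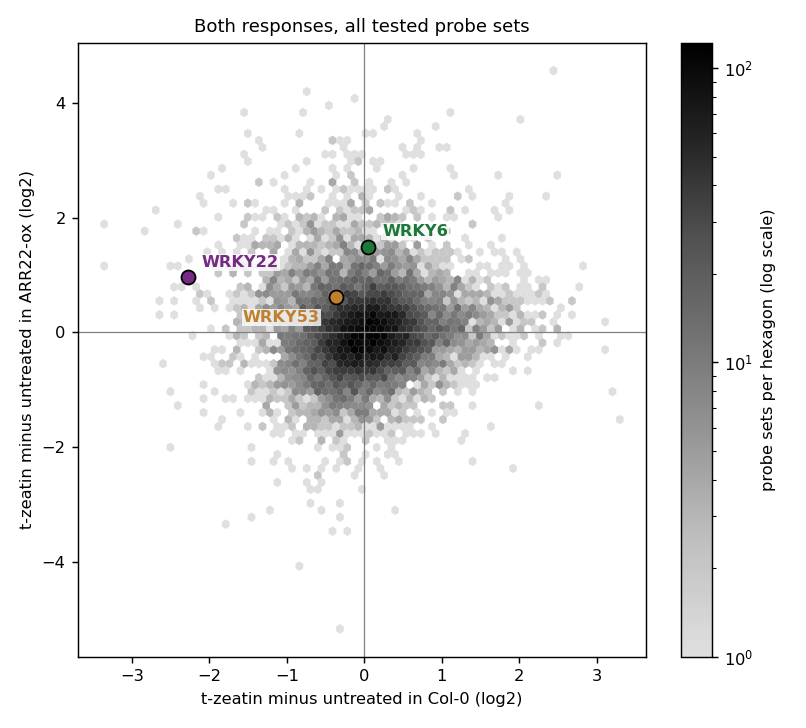
The t-zeatin response in ARR22-ox (vertical, log2) against that in Col-0 (horizontal, log2) for 13648 probe sets, shaded by their number. WRKY22 lies in the sparse upper left, at -2.28 and 0.96, WRKY6 above the origin at 1.49 in ARR22-ox, and WRKY53 inside the dense centre.

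The fourth comparison set ARR22-ox against Col-0 without added hormone, and the 3 genes did not move together. WRKY6 was 1.48-fold higher in ARR22-ox untreated plants, 60.3 ± 5.63 against 40.8 ± 1.78 in Col-0 untreated plants (log2 difference 0.56 ± 0.10, SE, adjusted p = 0.000558). WRKY22 was 4.17-fold lower, 30.5 ± 5.04 against 126 ± 2.48 in Col-0 untreated plants (-2.06 ± 0.13, adjusted p = 1.01e-07). Of the tested probe sets 1.16% had a more negative difference. WRKY53 was 2.15-fold lower, 21.1 ± 7.29 against 43.5 ± 3.19 in Col-0 untreated plants (-1.10 ± 0.24, adjusted p = 0.00202). It was the 1 WRKY53 comparison whose call held in all 19 alternatives that could be run, with values from -1.35 (without ARR22-ox untreated replicate 3) to -0.70 (16 added to the signals). Without that replicate the differences of WRKY6 and WRKY22 were 0.60 and -2.18. In the untreated comparison 48.5% of tested probe sets were called, 24.5% as higher and 24% as lower. The untreated arrays of both genotypes also enter the t-zeatin responses, so these values are no separate evidence.

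The fifth comparison set the genotypes against each other after t-zeatin. WRKY6 was 4.02-fold higher in ARR22-ox t-zeatin plants, 169.2 ± 2.46 against 42.1 ± 2.71 in Col-0 t-zeatin plants (log2 difference 2.01 ± 0.10, SE, adjusted p = 1.36e-08). Larger positive differences were found for 1.43% of the tested probe sets. WRKY22 was 2.27-fold higher, 58.8 ± 4.24 against 25.9 ± 2.22 in Col-0 t-zeatin plants (1.18 ± 0.13, adjusted p = 1.07e-05). WRKY53 had 31.3 ± 3.95 in ARR22-ox t-zeatin and 34.3 ± 7.48 in Col-0 t-zeatin plants, a difference of -0.12 that did not pass (95% interval -0.63 to 0.39, adjusted p = 0.699). Its sign turned without Col-0 t-zeatin replicate 2 (0.048). Here 51% of all tested probe sets were called, 23.1% as higher and 28% as lower. The genotype comparisons without and with hormone share no array: WRKY6 was among 1178 probe sets (8.63%) that were higher in ARR22-ox both times, and WRKY22 among 778 (5.7%) that were lower without and higher with t-zeatin. WRKY53 was among 1281 (9.39%) that were lower without hormone and not called with it.

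In the gene annotation used, 6 genes of the WRKY family had a probe set of their own. Of these, 5 were bright enough to test, the 3 described here among them. WRKY genes that the annotation pairs with no probe set were not examined. WRKY47 resembled WRKY22 in its directions. It averaged 108 ± 5.71 in ARR22-ox t-zeatin, 48.7 ± 8.0 in ARR22-ox untreated, 69.6 ± 0.256 in Col-0 t-zeatin and 91.5 ± 8.3 in Col-0 untreated plants (SD, n = 3). It rose by 1.16 in ARR22-ox (adjusted p = 8.5e-06) and fell by 0.39 on the log2 scale in Col-0 (adjusted p = 0.0195), and the difference of its responses was 1.55 (adjusted p = 1.48e-05). The Col-0 call of WRKY47 did not survive the removal of replicate 1 of Col-0 t-zeatin or of replicates 1 or 2 of Col-0 untreated. WRKY20 passed in none of the 5 comparisons, with differences between -0.30 (the Col-0 response) and 0.39 (the difference of responses). Its Col-0 response had an adjusted p of 0.123, and of 0.00894 at the same value of -0.30 without ARR22-ox untreated replicate 3, which is no Col-0 array but enters the shared variance. It was also called with array weights (adjusted p = 0.0142) and with only the arrays compared (adjusted p = 0.0145). WRKY42 was not tested: its mean signal was at most 6.05 in any group, below the dimmest kept mean.

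The lists of genes that act with these factors were thinly covered by the gene annotation used. It names no gene for 8730 probe sets, so listed genes without a named probe set may still be on the array. Of 21 genes of pattern-triggered immunity and MAP kinase signalling 1 was tested. BIK1, a kinase that relays the signal of immune receptors, rose by 0.81 in ARR22-ox (adjusted p = 5.63e-05, or 0.74 without ARR22-ox untreated replicate 3) and fell by 0.62 on the log2 scale in Col-0 (adjusted p = 0.000507). EFR, a receptor for a bacterial elongation factor, lay below the filter, was picked after its values were seen, and had 42.9 ± 2.87 in ARR22-ox t-zeatin, 5.98 ± 4.38 in ARR22-ox untreated, 6.42 ± 3.57 in Col-0 t-zeatin and 9.15 ± 8.62 in Col-0 untreated plants. Of the 13 reported targets and regulators of WRKY6 or WRKY53 listed, none had a probe set paired with it alone in that annotation. Of 10 genes of salicylate signalling 1 was tested, SAG101, which is also a senescence gene.

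Of 22 leaf senescence genes 2 were tested, and they differed in ARR22-ox. SAG101, a partner of the immune regulator EDS1 that was first found in senescing leaves, rose by 0.74 in ARR22-ox (adjusted p = 0.00509) and fell by 1.12 on the log2 scale in Col-0 (adjusted p = 0.000353), the same directions as WRKY22. It averaged 47.9 ± 9.32 in ARR22-ox t-zeatin and 28.6 ± 5.2 in ARR22-ox untreated, and 21.8 ± 3.33 in Col-0 t-zeatin and 47.0 ± 4.73 in Col-0 untreated plants. SAG29, a sugar transporter gene of senescing leaves, fell by 1.98 on the log2 scale in ARR22-ox (adjusted p = 4.23e-05) and by 1.47 in Col-0 (adjusted p = 0.000477). Without hormone SAG29 was higher in ARR22-ox, 143.3 ± 29.7 against 36.4 ± 1.13 in Col-0 untreated plants, and so was WRKY6. SAG101 was lower there (log2 difference -0.73, adjusted p = 0.00576, limma), and so were WRKY53 and WRKY22.

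Genes induced by touch and wounding were set beside the WRKY genes, since several WRKY genes respond to handling. Of 12 such genes 4 were tested. The list was chosen with earlier results of these data known, so its counts and medians describe these genes only. All 4 rose in ARR22-ox, where 25.2% of all tested probe sets were called higher, with a median log2 change of 2.41 against -0.000457 for all tested probe sets, and 3 fell in Col-0, where 21.1% were called lower, with a median of -1.32 against 0.01. The counts were the same without ARR22-ox untreated replicate 3, where the median in ARR22-ox was 2.24. In ARR22-ox the changes were 2.56 for PUB22 and 2.28 for PUB23, both U-box ubiquitin ligases, 2.54 for the zinc-finger factor STZ and 1.80 for the calmodulin-like CML38. In Col-0 they were -0.10 for PUB22, which did not pass, -0.80 for PUB23, -1.83 for STZ and -2.07 for CML38. Of that list, 5 genes had a probe set of their own in the gene annotation used. Their summed signal lay between 1084 and 1118 in ARR22-ox t-zeatin and between 165.7 and 256.8 in ARR22-ox untreated plants. It lay between 192.6 and 219.9 in Col-0 t-zeatin and between 576.2 and 612.1 in Col-0 untreated plants. The part of the touch and wound genes in the WRKY results was not tested.

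The root marker PYK10 also moved with genotype, with summed root marker signals of 1327 to 1425 in ARR22-ox t-zeatin, 1548 to 1774 in ARR22-ox untreated, 2032 to 2089 in Col-0 t-zeatin and 2008 to 2217 in Col-0 untreated plants. The leaf marker RCA lay between 2125 and 2332 in ARR22-ox t-zeatin, 2553 and 3075 in ARR22-ox untreated, 2503 and 2514 in Col-0 t-zeatin, and 2959 and 3099 in Col-0 untreated plants. RCA was called lower after t-zeatin in Col-0 (log2 change -0.27, adjusted p = 0.00688, limma) and in ARR22-ox (-0.30, adjusted p = 0.00327). Without ARR22-ox untreated replicate 3, RCA was also called lower in ARR22-ox than in Col-0, both untreated (-0.22) and after t-zeatin (-0.17). The part of PYK10 and RCA in the WRKY results was not tested. The 3 reference genes tested showed no call in 4 of the comparisons, and in the ARR22-ox response 1 of them, SAND, was called with 0.48. UBC9 was called without ARR22-ox untreated replicate 3 in both responses (0.15 in Col-0 and 0.28 in ARR22-ox) and in the untreated genotype comparison (-0.26), and SAND then in the genotype comparison after t-zeatin (0.24) and in the ARR22-ox response (0.36).

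**Figure D4:**
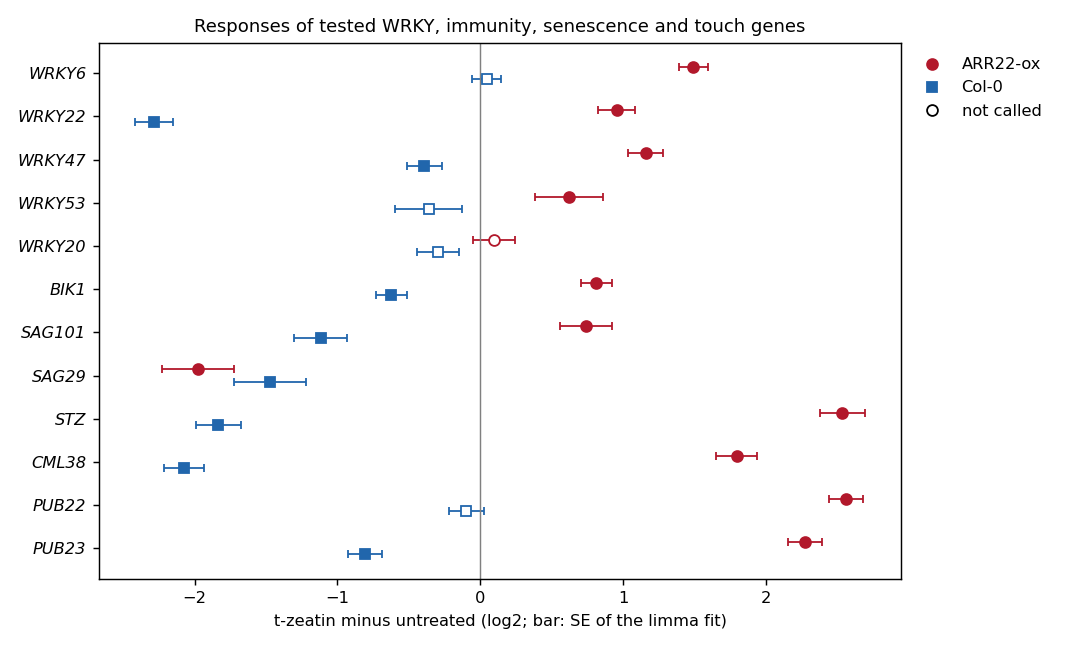
T-zeatin responses (log2, with SE) in ARR22-ox (circles) and Col-0 (squares) of the tested WRKY genes and of named immunity, senescence and touch genes. Filled symbols passed an adjusted p of 0.05. WRKY22, WRKY47, BIK1, SAG101, STZ, CML38 and PUB23 have a positive response in ARR22-ox and a negative one in Col-0, both called. WRKY53, PUB22 and WRKY20 have the same signs, but WRKY53 and PUB22 passed only in ARR22-ox and WRKY20 in neither.

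The pattern of each gene over the 12 arrays was compared with that of the 7225 other genes that were tested through a probe set of their own. Likeness was the root mean square difference between log2 signals, after each gene was centred on its own mean, so that a smaller value is a closer match. Values below are in log2 units over 12 arrays and carry no test. Closest to WRKY6 were AT2G32190 (0.155), AT2G41380 (0.162), AT1G74360 (0.167), YLS5, a gene of yellowing leaves (0.169), and AT5G17380 (0.192), where the WRKY6 profile itself spread by 0.835. All 5 had their highest mean in ARR22-ox t-zeatin plants, from 71.0 for AT1G74360 to 1164 for AT5G17380. Their choice by likeness favours such a shared peak. Without ARR22-ox untreated replicate 3, 2 of the 5 stayed among the closest.

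Closest to WRKY22 were AT2G24600 (0.189), the serine carboxypeptidase-like gene SCPL34 (0.201), AT1G69890 (0.227), AT5G05300 (0.231) and AT2G44500 (0.262), where WRKY22 itself spread by 0.911. Each of them was highest in Col-0 untreated plants, which their choice by likeness also favours. AT2G24600 averaged 141.3 in ARR22-ox t-zeatin, 70.2 in ARR22-ox untreated, 74.4 in Col-0 t-zeatin and 277.9 in Col-0 untreated plants. Without ARR22-ox untreated replicate 3, 4 of the 5 stayed among the closest. Closest to WRKY53 were AT2G40620, the gene of basic leucine-zipper protein bZIP18 (0.183), AT5G32450 (0.188), AT1G03440 (0.211), AT5G26740 (0.22) and AT5G05190 (0.229), where WRKY53 itself spread by 0.475 and its replicates by 0.259 around their group means. Those distances are smaller than the spread of the WRKY53 replicates, and 3 of the 5 stayed without ARR22-ox untreated replicate 3. Between the members, WRKY22 and WRKY53 lay 0.745 apart, WRKY6 and WRKY53 1.05, and WRKY6 and WRKY22 1.22.

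**Figure D5:**
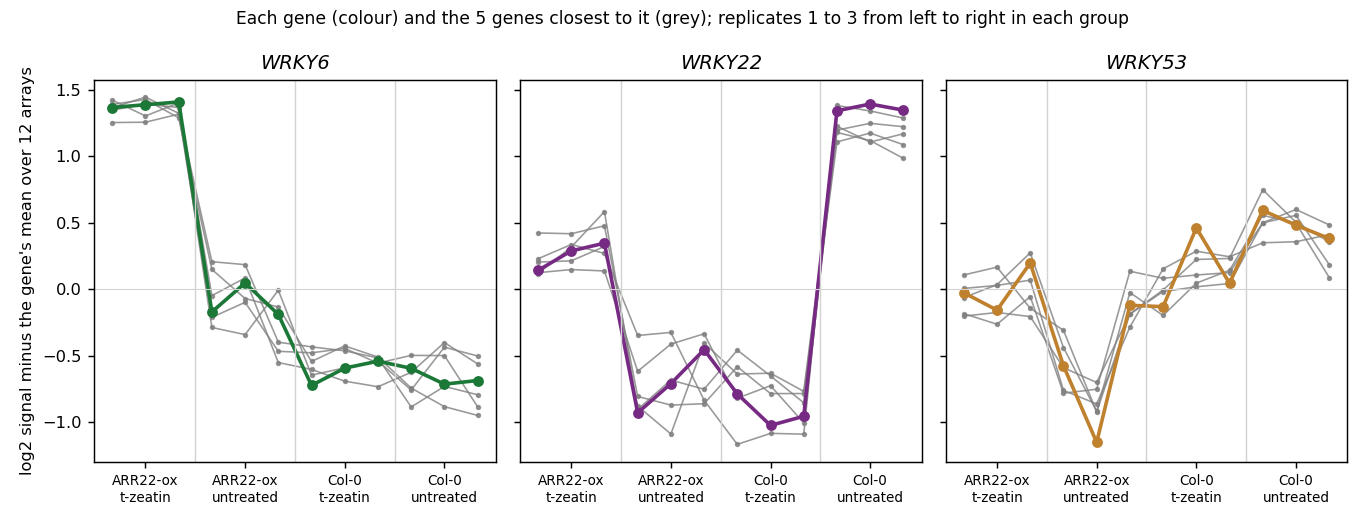
Log2 signal of each gene minus its own mean over the 12 arrays (colour), with the 5 closest genes (grey), in the order of the 4 groups and replicates 1 to 3 within each. WRKY6 is high in ARR22-ox t-zeatin, WRKY22 in Col-0 untreated, and WRKY53 lowest in ARR22-ox untreated.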

How the data were processed

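The authors deposited linear array intensity values, 1 for each probe set, made with MAS5 (no version given) per the submitters' processing notes. Each array had been scaled by the authors: the mean after trimming the lowest and highest 2% was 100 on all 12. The table held 22810 probe sets, 64 of them controls. No arrays were identical (0 duplicates). Detection calls were not used here. The number of arrays limits the precision.

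Signals were converted to log2 and controls left out. The filter kept probe sets whose mean log2 signal reached the 40th percentile (13648, lowest kept mean 24.3). Gene names came from the given platform table, in which 13513 probe sets have 1 gene, 503 several and 8730 none. Symbols were updated through gene IDs for 13436. The brightest probe set stood for a gene. No coordinates are printed, since probe positions were not mapped.

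A limma model (version 3.58.1, R 4.3.3) of the 4 group means used all arrays (empirical Bayes with a variance trend), two-sided, with Benjamini-Hochberg adjustment over all tested probe sets. The code of the fit was checked on simulated data with equal spread on all arrays. That check does not cover an array that stands apart. Named genes are the 3 members, the other WRKY genes, called members of the listed pathways (at most 4 per list and comparison, largest first, and every tested member of a list with 4 or fewer) and the 5 genes closest to each member. The members and lists were chosen with earlier results of these data known, and EFR and WRKY42 are shown although untested. Alternatives were an offset of 16, quantile and median scaling, no filter or the 60th percentile, no trend, array weights, only the arrays compared, and leaving out each array. Counts and values of listed genes and the closest genes without ARR22-ox untreated replicate 3 were added after seeing the data.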

Additional observations from a re-analysis of the deposited data

Results flagged for a closer look

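The t-zeatin response of 11 of the 14 tested genes of the WRKY, senescence, immunity, touch and cytokinin lists differed between ARR22-ox and Col-0. This is by the test of the difference itself, which called 45.6% of all tested probe sets. The members and lists were chosen with earlier results of these data known, so the count is no separate evidence about such genes. Among the WRKY genes the difference, ARR22-ox minus Col-0 on the log2 scale, was 1.45 for WRKY6, 3.24 for WRKY22, 0.98 for WRKY53 and 1.55 for WRKY47. It was 1.44 for BIK1 and 1.86 for SAG101. Among the touch and wound genes it was 4.37 for STZ, 3.87 for CML38, 2.66 for PUB22 and 3.08 for PUB23. It was -4.18 for ARR16. Groups of 3 arrays are too small for the check on single samples far from their group.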

How the results depend on the processing

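WRKY6 and WRKY22 kept direction and call in every comparison under each alternative run, except the uncalled Col-0 response of WRKY6, which turned to -0.012 under quantile normalization. WRKY22 and WRKY53 fell below the 60th percentile filter and have no value there. The WRKY53 response in ARR22-ox missed the threshold with quantile normalization (0.57, adjusted p = 0.0509), with arrays set to the same median (0.56, adjusted p = 0.0674), without the filter (0.62, adjusted p = 0.0723) and with only the arrays compared (0.62, adjusted p = 0.114). With single arrays left out it ranged from 0.35 to 0.87. Its difference of responses missed the threshold without the filter (0.98, adjusted p = 0.0506) and ranged from 0.71 to 1.23 with single arrays left out. Its uncalled genotype difference after t-zeatin ranged from -0.25 to 0.048. The count of other WRKY genes that fell in Col-0, 1 in the reported fit, was 2 (WRKY47 and WRKY20) with array weights, with only the arrays compared and without ARR22-ox untreated replicate 3, and 0 without Col-0 untreated replicate 1 or 2 or Col-0 t-zeatin replicate 1. More probe sets enter the adjustment without the filter, and fewer arrays enter the variance with only those compared. The causes of the changed calls were not tested. No paired analysis was possible because the labels pair no arrays.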
